A study of Homo sapiens with 24 samples.

Results

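The genes described here are 45 core components of the spliceosome outside the SF3 complexes. They are the Sm and LSm ring proteins, U1 and U2 snRNP proteins, U5 and tri-snRNP proteins, PRP19-related proteins, and DEAH-box helicases with late-acting factors, chosen by name and known role. Their splice sites were read out of poly(A)-selected RNA-seq of HCT116 cells, a human colorectal carcinoma line. All cells overexpressed PHF5A, either wild type (WT) or with the Y36C substitution, in addition to their own PHF5A gene. They received DMSO, the solvent, or E7107, a splicing modulator of the pladienolide class, for 6 h at a dose that the labels do not give. This made 4 groups of 6 samples, named by the PHF5A form and the treatment, and 24 samples in all. Per the study's methods the 6 samples of a group were replicate treatments made before lysis, so p-values measure the spread between such treatments. The labels name no separate lines within a PHF5A form, so a genotype difference cannot be told apart from one between engineered lines.

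Of 1823643 rows in the table, 7373 lay within the span and on the strand of the 45 genes. Each row gives the percent spliced in (PSI), the share of the reads at a splice site that take a given path. In 2468 member rows the path was the exon–intron boundary, where an unspliced read runs through, and in 4905 it was a spliced junction. Retention of an intron was the mean PSI of its boundaries, and retention of a gene the mean over its measured introns. A measured intron was an annotated intron that no exon of another transcript overlapped (transcripts annotated as retaining an intron aside), with reads at both splice sites in every sample. The 45 genes held 466 of the 73204 measured introns, which lay in 9932 genes. Of these, 458 belonged to the canonical transcripts, which have 546 introns.

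The spliceosome assembles on each intron stepwise. U1 snRNP pairs with the 5′ splice site, and U2 snRNP is held on the branch point by SF3b, the complex that contains PHF5A and SF3B1 and is the target of E7107. The U4/U6.U5 tri-snRNP then joins, PRP19-related proteins stabilise the active site, and DEAH-box ATPases drive the remodelling up to the release of the mRNA. Sm proteins form the ring on U1, U2, U4 and U5 RNA, and LSm proteins the ring on U6 RNA. The comparisons ask how transcripts of this machinery were themselves spliced when SF3b was inhibited, and whether Y36C altered that response.

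Of 2514 member splice sites listed, 1400 to 1432 had reads in the WT DMSO samples, 1325 to 1361 in WT E7107, 1403 to 1431 in Y36C DMSO and 1423 to 1451 in Y36C E7107. The files give percentages and no counts, so the depth behind a PSI is unknown. Canonical splice sites of EPCAM, CDH1 and KRT18, epithelial markers, had reads in all samples without exception, as did 2 of 4 of CDX2 and none of KRT20, LGALS4, CDX1 and VIL1. None did in PTPRC, CD3E, COL1A2 and ALB, markers of other cell types, but 80 of 100 did in COL1A1, whose part in the results was not tested.

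The following sequences are of introns and exons on which the results turn, read from GRCh37 in the direction of transcription. The first pair are whole introns of equal length with their terminal dinucleotides in capitals. Retention of PRPF4 intron 11 rose with E7107 in WT cells and was not called in Y36C cells, whereas that of DHX16 intron 11 rose in both. PRPF4 intron 11 was picked for its length after its values were seen.
PRPF4 intron 11, chr9:116052869-116052979, plus strand: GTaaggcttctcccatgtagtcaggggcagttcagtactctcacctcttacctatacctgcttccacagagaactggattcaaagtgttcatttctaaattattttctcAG
DHX16 intron 11, chr6:30627402-30627512, minus strand: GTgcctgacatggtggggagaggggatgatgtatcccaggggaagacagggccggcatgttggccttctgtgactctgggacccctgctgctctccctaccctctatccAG

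The next set shows the last 60 bases, with the final AG in capitals, of canonical introns among those with the largest gain in WT cells (PRPF3, PRPF4 and CRNKL1). It then shows those that, with DHX16 intron 11, gained most among the introns called in Y36C cells (DHX38, PRPF31, SNRNP200 and LUC7L2).
PRPF3 intron 2, chr1:150298149-150298208, plus strand: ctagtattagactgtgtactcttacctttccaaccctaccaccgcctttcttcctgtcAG
PRPF3 intron 7, chr1:150310576-150310635, plus strand: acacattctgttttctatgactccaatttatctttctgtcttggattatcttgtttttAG
PRPF4 intron 8, chr9:116048925-116048984, plus strand: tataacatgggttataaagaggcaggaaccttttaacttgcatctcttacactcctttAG
CRNKL1 intron 2, chr20:20030076-20030135, minus strand: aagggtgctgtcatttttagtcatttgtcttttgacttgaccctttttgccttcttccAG
DHX38 intron 14, chr16:72138325-72138384, plus strand: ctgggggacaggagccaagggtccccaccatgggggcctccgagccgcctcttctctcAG
PRPF31 intron 6, chr19:54627068-54627127, plus strand: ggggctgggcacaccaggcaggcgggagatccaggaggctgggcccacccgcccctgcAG
SNRNP200 intron 30, chr2:96950324-96950383, minus strand: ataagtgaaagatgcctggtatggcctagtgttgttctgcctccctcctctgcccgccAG
LUC7L2 intron 9, chr7:139106849-139106908, plus strand: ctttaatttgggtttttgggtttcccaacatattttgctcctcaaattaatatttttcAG

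Of the 20 bases before the AG, 15 to 17 were pyrimidines in the PRPF3, PRPF4 and CRNKL1 introns of this set and 14 to 17 in the other 4 introns. The GC content of the 60 bases was 30% to 46.7% in the former. It was 70% in DHX38, 76.7% in PRPF31, 55.0% in SNRNP200 and 30% in LUC7L2.

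In WT cells E7107 raised the retention of nearly the whole machinery. Mean retention rose in 41 of the 45 genes and fell in 1 (limma, adjusted p of 0.05 or less), against 70.8% and 6.85% of all 9932 genes. The median over the 45 genes was 0.90% in WT DMSO and 7.75% in WT E7107, and over all genes it was 1.96% and 9.72%. The median change differed by role, as the plot of retention by gene shows. It was 17.5 percentage points in the tri-snRNP proteins, 13.5 in the DEAH-box and late-acting factors, 8.38 in the U1 proteins, 6.71 in the PRP19-related proteins, 6.35 in the U2 proteins, 4.95 in the U5 proteins, 1.28 in the Sm proteins and -0.13 in the LSm proteins. Over all genes the median change was 6.38 points. The Sm and LSm genes had only 17 and 13 measured introns, against 129 in the U5 genes. PSI is a share of the reads at a site in bulk RNA, so more unspliced transcript and less spliced transcript cannot be told apart.

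**Figure D1:**
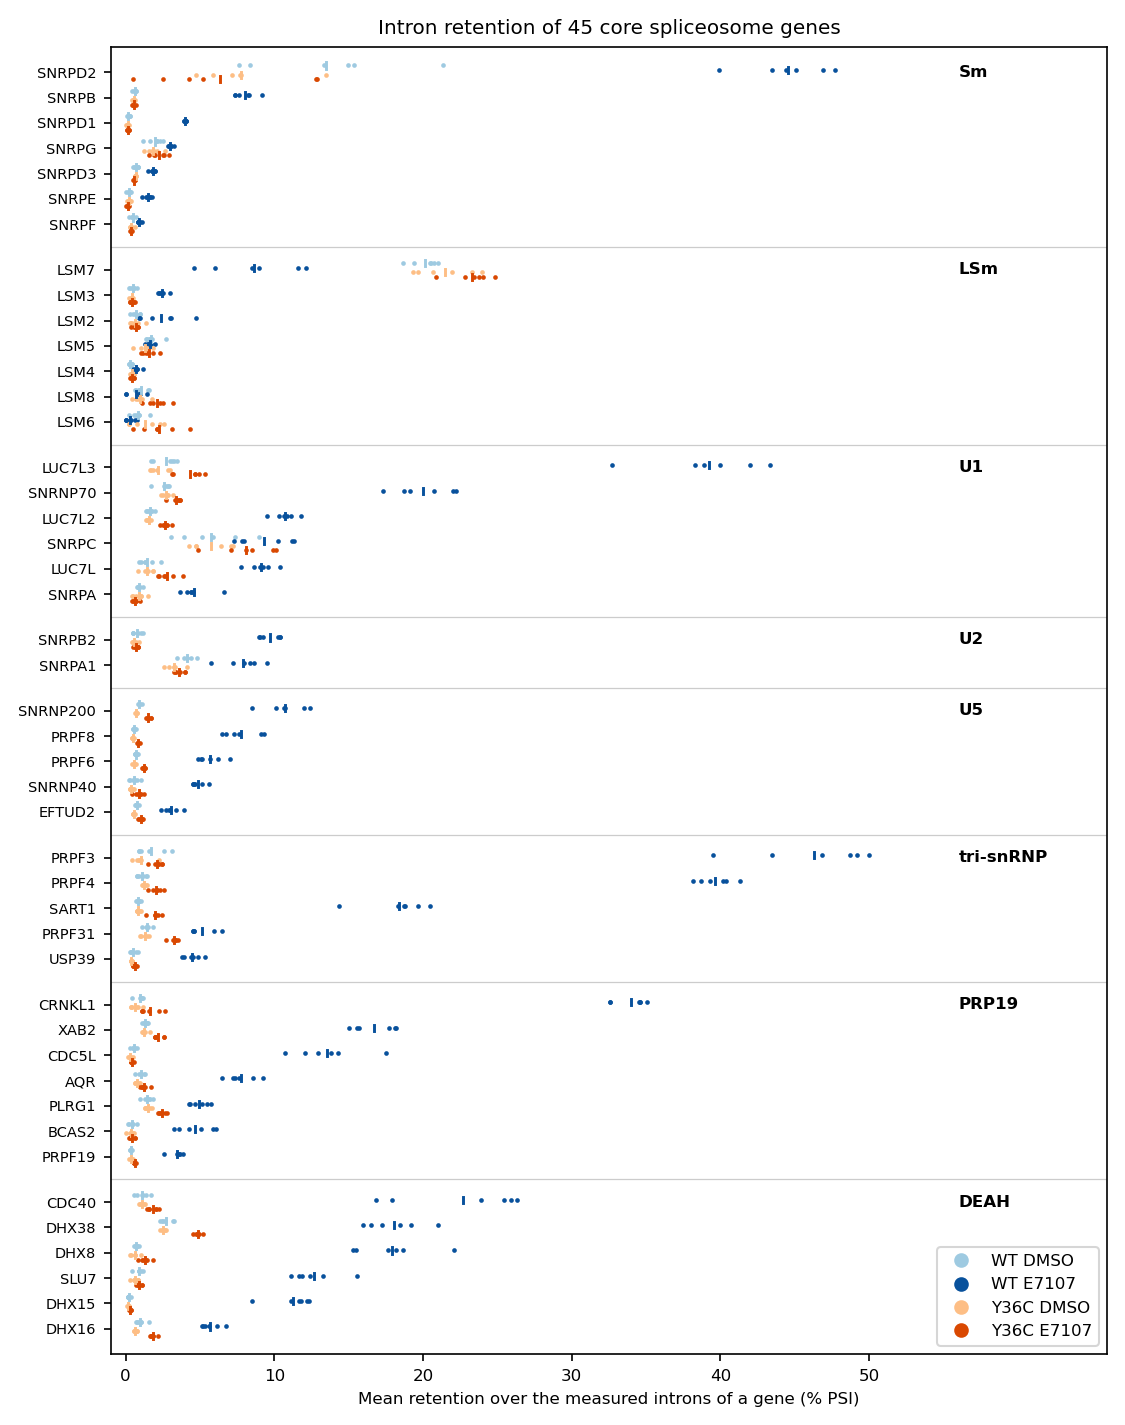
Mean retention over the measured introns of each of the 45 genes, as percent PSI, in the 24 samples (points) with group means (bars), grouped by role and ordered by the WT E7107 mean. The WT E7107 points of PRPF3, PRPF4, LUC7L3 and CRNKL1 lie between 32.6% and 50%, far from their other groups, while LSM7 is lower in WT E7107 than in the other groups.

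Among the tri-snRNP proteins, PRPF3 and PRPF4, which bind the U4/U6 duplex together, were the most retained. Ranges give the lowest and highest of the 6 samples. PRPF3 was at 0.873–3.13% (median 1.33%) in WT DMSO and at 39.5–50% (median 47.8%) in WT E7107. In Y36C cells it was at 0.429–2.24% (median 0.916%) with DMSO and at 1.51–2.43% (median 2.2%) with E7107. Treated and untreated samples were far apart in WT cells and overlapped in Y36C cells. On the natural-log odds scale, PRPF3 retention rose in WT (3.51, SE 0.15, adjusted p = 2.4e-10) and less in Y36C (0.46, SE 0.12, adjusted p = 0.008). PRPF4 rose from 1.07% ± 0.302 (SD, n = 6, as in all values given so) to 39.7% ± 1.18 in WT, and SART1, a scaffold of the tri-snRNP, from 0.86% ± 0.112 to 18.4% ± 2.11. In Y36C, PRPF4 rose from 1.24% ± 0.139 to 2.08% ± 0.367 and SART1 from 0.854% ± 0.118 to 2% ± 0.374. USP39, which is needed for the tri-snRNP to join, rose from 0.507% ± 0.203 to 4.47% ± 0.589 in WT and from 0.389% ± 0.0328 to 0.603% ± 0.114 in Y36C.

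PRPF31, which holds U4 RNA in the tri-snRNP, had the smallest WT change of its role. It went from 1.11–1.84% (median 1.44%) to 4.53–6.45% (median 4.6%) in WT and from 0.991–1.59% (median 1.29%) to 2.74–3.54% (median 3.31%) in Y36C, without overlap in either. Its Y36C change (0.65, SE 0.06, adjusted p = 2.5e-06) was the largest of the 45 genes in log odds.

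All 7 PRP19-related genes rose in WT cells. CRNKL1, the crooked neck protein, had the largest change, from 0.444–1.2% (median 1.02%) in WT DMSO to 32.6–35.1% (median 34.6%) in WT E7107. In Y36C cells its values were 0.374–1.19% (median 0.592%) and 1.08–2.63% (median 1.38%), which overlapped. XAB2 reached 16.7% ± 1.44 and CDC5L 13.6% ± 2.33 in WT E7107. PRPF19, the ubiquitin ligase that gives the complex its name, changed least, from 0.273–0.416% (median 0.362%) to 2.61–3.85% (median 3.55%) in WT, still without overlap, and from 0.24–0.506% (median 0.373%) to 0.543–0.682% (median 0.605%) in Y36C. AQR, the intron-binding helicase, rose from 1.03% ± 0.236 to 7.75% ± 0.984, PLRG1 from 1.47% ± 0.315 to 4.94% ± 0.617 and BCAS2 from 0.431% ± 0.203 to 4.69% ± 1.2 in WT. In Y36C AQR rose from 0.771% ± 0.133 to 1.22% ± 0.259 and PLRG1 from 1.47% ± 0.198 to 2.43% ± 0.231, while BCAS2 and CDC5L were not called.

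The 6 DEAH-box and late-acting genes all rose in WT cells as well. CDC40, a factor of the second catalytic step, went from 0.534–1.69% (median 1.13%) to 16.8–26.3% (median 24.7%) in WT and from 0.888–1.33% (median 1.07%) to 1.46–2.23% (median 1.79%) in Y36C. DHX38, DHX8 and SLU7 reached 18% ± 1.88, 17.9% ± 2.48 and 12.7% ± 1.6 in WT E7107. DHX15, the helicase that takes spent complexes apart, rose from 0.201% ± 0.0893 to 11.3% ± 1.42. DHX16, which acts before branching, changed least, from 0.712–1.59% (median 0.942%) to 5.11–6.76% (median 5.49%) in WT and from 0.553–0.765% (median 0.669%) to 1.67–2.17% (median 1.79%) in Y36C, without overlap in either.

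In the U5 snRNP, SNRNP200 (BRR2), the helicase that unwinds U4 from U6, had the largest change. It went from 0.826–1.08% (median 0.897%) to 8.52–12.4% (median 10.7%) in WT and from 0.63–0.751% (median 0.675%) to 1.36–1.72% (median 1.48%) in Y36C, without overlap in either. PRPF8, the protein around the catalytic core, rose from 0.572% ± 0.0904 to 7.75% ± 1.19 in WT. EFTUD2, the GTPase of the particle, changed least, from 0.649–0.87% (median 0.724%) to 2.36–3.92% (median 2.95%) in WT and from 0.498–0.653% (median 0.525%) to 0.811–1.18% (median 1.09%) in Y36C. PRPF6, which bridges U5 and U4/U6, rose from 0.711% ± 0.0913 to 5.66% ± 0.823 and SNRNP40 from 0.576% ± 0.301 to 4.84% ± 0.439 in WT. In Y36C PRPF8 rose from 0.493% ± 0.0438 to 0.844% ± 0.0719, PRPF6 from 0.569% ± 0.0877 to 1.23% ± 0.0829 and SNRNP40 from 0.386% ± 0.127 to 0.867% ± 0.273.

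Of the U1 proteins, LUC7L3, a LUC7-like protein, was the most retained. It went from 1.68–3.48% (median 3.07%) to 32.7–43.4% (median 39.5%) in WT and from 1.64–3.01% (median 1.96%) to 3.14–5.32% (median 4.65%) in Y36C. The call in Y36C was lost over its 6 measured canonical introns alone, at 0.556% ± 0.13 and 0.681% ± 0.123. SNRNP70, the U1-70K protein, rose from 2.57% ± 0.457 to 20% ± 1.96 in WT, LUC7L2 reached 10.7% ± 0.765 and LUC7L 9.1% ± 0.879. SNRPA, the U1-A protein, rose from 0.9% ± 0.156 to 4.63% ± 1.03 in WT and was at 0.876% ± 0.415 and 0.644% ± 0.196 in Y36C. SNRPC, the U1-C protein, changed least, from 3.04–8.99% (median 5.51%) to 7.3–11.3% (median 9.1%) in WT with overlap, and from 4.28–7.23% (median 5.6%) to 4.86–10.1% (median 8.32%) in Y36C. Most of its level came from an intron outside the canonical transcript. Its 3 measured canonical introns rose from 0.0814% ± 0.0291 to 1.12% ± 0.384 in WT.

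Both U2 proteins outside SF3 rose in WT cells. SNRPB2 (U2-B″) went from 0.502–1.14% (median 0.693%) to 8.96–10.4% (median 9.74%), and SNRPA1 (U2-A′) from 3.44–4.82% (median 4.13%) to 5.76–9.52% (median 8.16%). In Y36C, SNRPB2 was at 0.414–0.873% (median 0.544%) and 0.504–0.832% (median 0.735%), and SNRPA1 at 2.59–4.16% (median 3.26%) and 3.27–3.99% (median 3.53%). These Y36C samples overlapped, and neither gene passed the limma test there (adjusted p = 0.33 and 0.3). With the median over introns SNRPA1 did pass (limma, adjusted p = 0.0043).

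The ring proteins were less retained. All 7 Sm genes rose in WT cells, SNRPF least, from 0.257–0.681% (median 0.452%) to 0.803–1.11% (median 0.863%), against 0.281–0.655% (median 0.357%) and 0.266–0.435% (median 0.353%) in Y36C. SNRPE, SNRPD3 and SNRPG reached 1.51% ± 0.235, 1.81% ± 0.178 and 3.01% ± 0.144 in WT E7107. SNRPB, which encodes the B and B′ proteins, rose from 0.599% ± 0.0938 to 8.01% ± 0.693. SNRPD2 stood apart, from 7.64–21.3% (median 14.2%) to 39.9–47.7% (median 44.7%) in WT and from 4.71–13.5% (median 7.41%) to 0.504–12.9% (median 4.74%) in Y36C, and was measured by a single intron outside the canonical transcript.

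Of the LSm genes, LSM2, LSM3 and LSM4 rose in WT cells. LSM3 had the largest rise, from 0.221–0.788% (median 0.482%) to 2.21–3.01% (median 2.39%) in WT, against 0.226–0.499% (median 0.436%) and 0.297–0.627% (median 0.416%) in Y36C. LSM2 rose from 0.675% ± 0.262 to 2.39% ± 1.47 and LSM4 from 0.32% ± 0.0761 to 0.728% ± 0.224. The LSM4 call was lost with PSI in percent as the response (limma, adjusted p = 0.0779), and over all annotated introns the LSM4 change in WT was -0.09 in log odds (limma, adjusted p = 0.148). LSM5, LSM6 and LSM8 did not pass the test in WT, with changes of -0.131, -0.517 and -0.327 points. LSM8 rose in Y36C from 0.983% ± 0.457 to 2.09% ± 0.739.

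LSM7 was the gene that fell, from 18.6–21% (median 20.5%) to 4.63–12.1% (median 8.74%) in WT, without overlap, against 19.4–24% (median 21.3%) and 20.9–24.9% (median 23.6%) in Y36C. The fall came from an intron of another transcript (chr19:2324196-2324740, minus strand), at 39.9% ± 1.87 and 16.7% ± 5.84 in WT. The measured canonical intron of LSM7 was at 0.368% ± 0.205 and 0.62% ± 0.186, and over it alone the change was not called (limma, adjusted p = 0.062). With canonical introns only, 40 of 44 genes rose in WT, a reading chosen after the data were seen. The share over all genes was not taken for it, so this count has no background beside it.

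In Y36C cells the same treatment changed retention by fewer points. It rose in 25 genes and fell in 0 (limma, also 0 falling at an unadjusted p under 0.05), against 42.7% and 0.745% of all genes. The median over the 45 genes was 0.69% in Y36C DMSO and 1.53% in Y36C E7107. The genes that rose were all 5 tri-snRNP and all 5 U5 genes, 5 of 7 PRP19-related genes, 5 of 6 DEAH-box and late-acting genes, 4 of 6 U1 genes and 1 of 7 LSm genes (LSM8). Of the Sm and U2 genes 0 were called (limma, also 0 at an unadjusted p under 0.05). With the median over introns in place of the mean, SNRPA1 was called higher (0.42, limma, adjusted p = 0.0043). SNRPD3 was called lower in that setting (-0.12, limma, adjusted p = 0.025).

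The response to E7107 was smaller in Y36C than in WT for 39 genes and larger for 3, by the limma interaction of genotype and treatment, against 59.7% and 11.8% of all genes. The 3 were LSM6, LSM7 and LSM8, each measured by 1 or 2 introns. For PRPF3 the interaction was -3.05, SE 0.20, adjusted p = 1.8e-12 and for PRPF31 -0.30, SE 0.09, adjusted p = 0.0059. With 5′ boundaries alone the PRPF31 interaction did not pass (limma, adjusted p = 0.219). With either boundary alone the larger response remained in 1 gene, LSM7. The LSM6 interaction did not pass with 5′ (limma, adjusted p = 0.07) or 3′ boundaries alone (0.172), PSI in percent (0.0901), the median over introns (0.0528), all annotated introns (0.358) or the replicate block (0.0558). That of LSM8 did not pass with 5′ (limma, adjusted p = 0.206) or 3′ boundaries alone (0.0521) or over all annotated introns (0.565). Over canonical introns alone the LSM7 interaction was -0.12 (limma, adjusted p = 0.333), and over all annotated introns that of LSM4 was 0.26 (limma, adjusted p = 0.00123). SNRPC, SNRPG and LSM5 did not pass. The SNRPC interaction did pass, as a smaller response in Y36C, over canonical introns alone (-0.59, limma, adjusted p = 1.8e-06). It also passed with the median over introns (limma, adjusted p = 5.7e-06) and with 3′ boundaries alone (1.0e-05). That of SNRPG passed in the same direction with 3′ boundaries alone (limma, adjusted p = 0.016) and over all annotated introns (0.0016).

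Of 15 other genes of the pathway (SF3A1, SF3A2, SF3A3, SF3B1, SF3B2, SF3B3, SF3B4, SF3B6, U2AF1, U2AF2, SF1, PUF60, DDX46, DDX42 and SUGP1), all 15 rose in WT, 6 rose in Y36C, and all 15 responded less in Y36C, against 70.8%, 42.7% and 59.7% of all genes.

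At the level of introns, 347 of the 466 were called higher at both boundaries in WT E7107 and 1 lower, the LSM7 intron above, against 32.2% and 1.16% of all 73204. By the interaction 310 responded less at both boundaries in Y36C and 1 more, against 26.7% and 2.51%. With no filter on PSI, 787 of 932 boundaries of measured introns rose and 3 fell in WT, against 43.4% and 2.54% over all genes. In Y36C 67 rose and 1 fell, against 8.10% and 0.189%. The interaction was negative for 717 and positive for 4, against 36.3% and 4.18%. When testing was kept to boundaries with PSI above 0 in all 6 samples of a group, 892 of 1005 member boundaries of any kind rose and 18 fell in WT (background 70.9% and 5.78%). In Y36C 124 of 531 rose and 5 fell (background 27.5% and 1.43%), and the interaction was positive for 23 and negative for 790 of 1006 (background 8.97% and 54.9%). That filter lets in boundaries through the group in which they are high. Mean retention exceeded 30% at 44 introns in WT E7107 and at 3 in Y36C E7107.

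The canonical introns that gained most in WT cells belonged to PRPF3, CRNKL1 and PRPF4. PRPF3 intron 2 (663 bases, GC 35.4%) was at 0–2.83% (median 0.597%) in WT DMSO and at 45.9–71.1% (median 61%) in WT E7107. In Y36C it was at 0–1.19% (median 0.652%) and 1.59–2.68% (median 2.11%), without overlap but far below WT E7107. PRPF3 introns 7 and 8 reached 57.3% ± 7.52 and 60.2% ± 6.81 in WT E7107, against 0.882% ± 0.613 and 5.7% ± 2.19 in Y36C E7107. A PRPF3 intron outside the canonical transcript (chr1:150298340-150300015, plus strand) gained more, reaching 75.9% ± 5.36 in WT E7107 against 7.45% ± 3.86 in Y36C E7107.

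CRNKL1 intron 2 (1038 bases) was listed at 0 in 5 of 6 samples in each of WT DMSO, Y36C DMSO and Y36C E7107, with the sixth at 1.02%, 0.781% and 2%. In WT E7107 it was at 51.1–66% (median 56.6%). PRPF4 intron 8 (414 bases, GC 35.0%) went from 0–1.53% (median 0.327%) to 53.2–65.7% (median 55.3%) in WT and was at 0.21–1.97% (median 1.65%) and 0.852–4.24% (median 1.79%) in Y36C. Retention was spread along these genes, as the profiles by intron show. Of the measured introns, 8 of 10 in PRPF3, 10 of 12 in PRPF4, 8 of 12 in CRNKL1 and 6 of 7 in LUC7L3 were at 30% or more in WT E7107. By contrast the 38 introns of PRPF8 were at 1.54% to 13.3%.

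**Figure D2:**
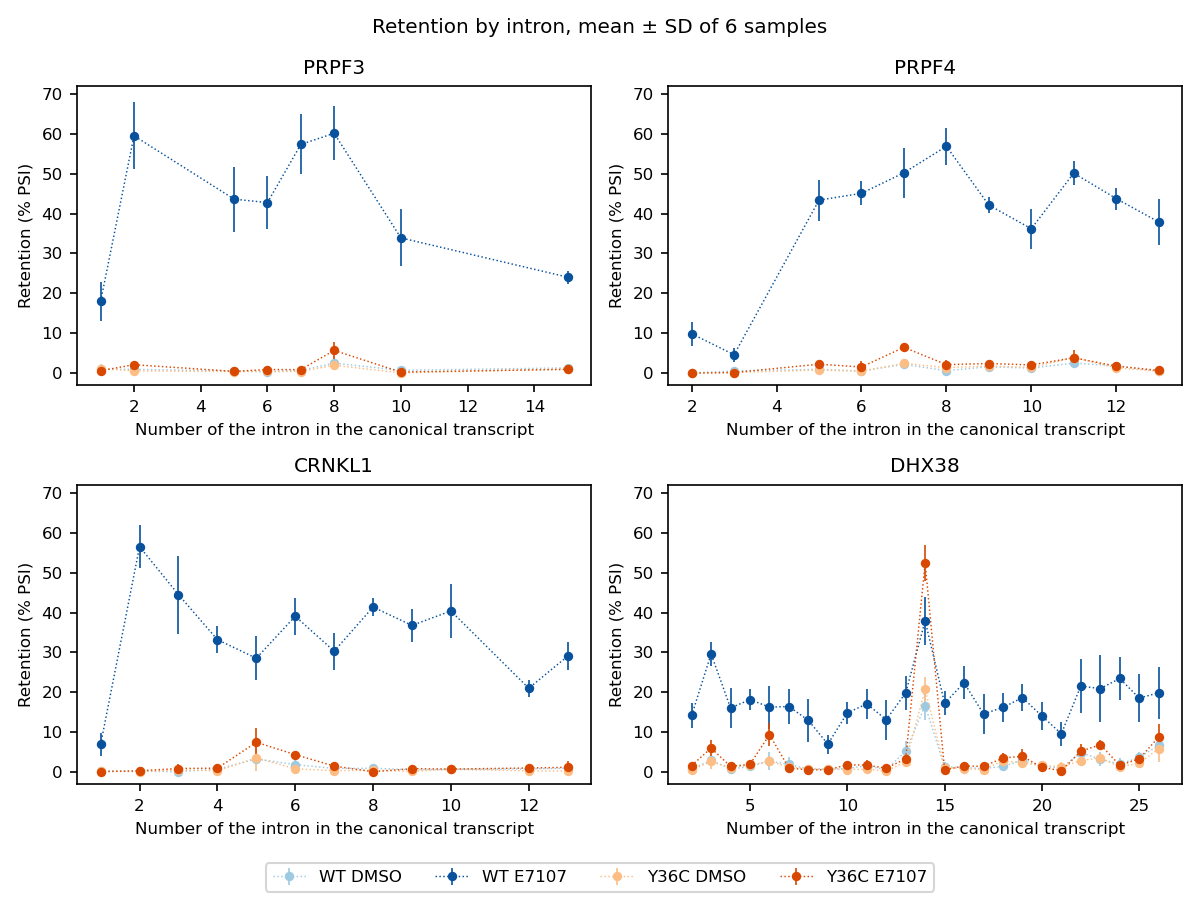
Retention (percent PSI, mean ± SD of 6 samples) of the measured introns of PRPF3, PRPF4, CRNKL1 and DHX38 by number in the canonical transcript, in the 4 groups; the dotted lines only join points. WT E7107 is the highest group at most introns, whereas at DHX38 intron 14 Y36C E7107 is the highest, at 52.5%.

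Both boundaries rose in Y36C cells at 23 of the 466 introns and fell at 0 (limma, also 0 at an unadjusted p under 0.05), against 6.41% and 0.0533% of all measured introns. Of the 23, 21 had also risen at both in WT, as had 347 of all 466. No share over all measured introns was taken for this overlap. The largest gain among them was in DHX38 intron 14 (chr16:72138031-72138384, plus strand, 354 bases, GC 57.9%), which was partly retained without drug. It went from 10.7–20.4% (median 17.1%) to 29.1–44.4% (median 40%) in WT and from 18.2–26.3% (median 19.4%) to 48.2–60.2% (median 51.8%) in Y36C, without overlap in either. At its 5′ boundary the log odds rose in WT (1.22, SE 0.15, adjusted p = 2.5e-05) and in Y36C (1.42, SE 0.15, adjusted p = 5.7e-05), and the limma interaction did not pass (0.20, SE 0.22, adjusted p = 0.48).

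DHX16 intron 11, shown above, went from 1.81–6.12% (median 2.33%) to 4.44–12.3% (median 9.36%) in WT and from 1.77–6.52% (median 2.4%) to 13.6–17.4% (median 15.3%) in Y36C. Treated samples of the genotypes did not overlap, but the interaction passed at neither boundary (5′, 0.64, SE 0.31, adjusted p = 0.096; 3′, 0.47, SE 0.37, adjusted p = 0.31). PRPF4 intron 11, also of 111 bases but with 42.3% GC against 61.3%, went from 2.52% ± 1.36 to 50.2% ± 3.08 in WT and was at 3.91% ± 1.2 and 3.84% ± 2.05 in Y36C (5′ interaction, -3.72, SE 0.38, adjusted p = 3.0e-08).

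PRPF31 intron 6 (188 bases, GC 63.8%) went from 0.556–2.73% (median 0.751%) to 3.7–6.85% (median 4.31%) in WT and from 0.945–2.24% (median 1.59%) to 10.6–13.7% (median 13.3%) in Y36C. The response was larger in Y36C at the 5′ boundary (0.91, SE 0.28, adjusted p = 0.0095) but did not pass at the 3′ boundary (0.40, SE 0.25, adjusted p = 0.2). With an offset of 0.1 points the 5′ interaction did not pass either (limma, adjusted p = 0.0812). SNRNP200 intron 30 was at 12.1% ± 1.77 and 15.5% ± 2.59 in WT and at 10.6% ± 1.09 and 18.8% ± 1.07 in Y36C, with the interaction passing at the 3′ boundary alone (adjusted p = 0.041). That call was lost with an offset of 0.1 points (limma, adjusted p = 0.0953) and with no filter on PSI (0.0557). LUC7L2 intron 9 rose from 10% ± 1.41 to 32.8% ± 2.69 in WT and from 10% ± 1.17 to 17.9% ± 1.71 in Y36C, less in Y36C at both boundaries.

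**Figure D3:**
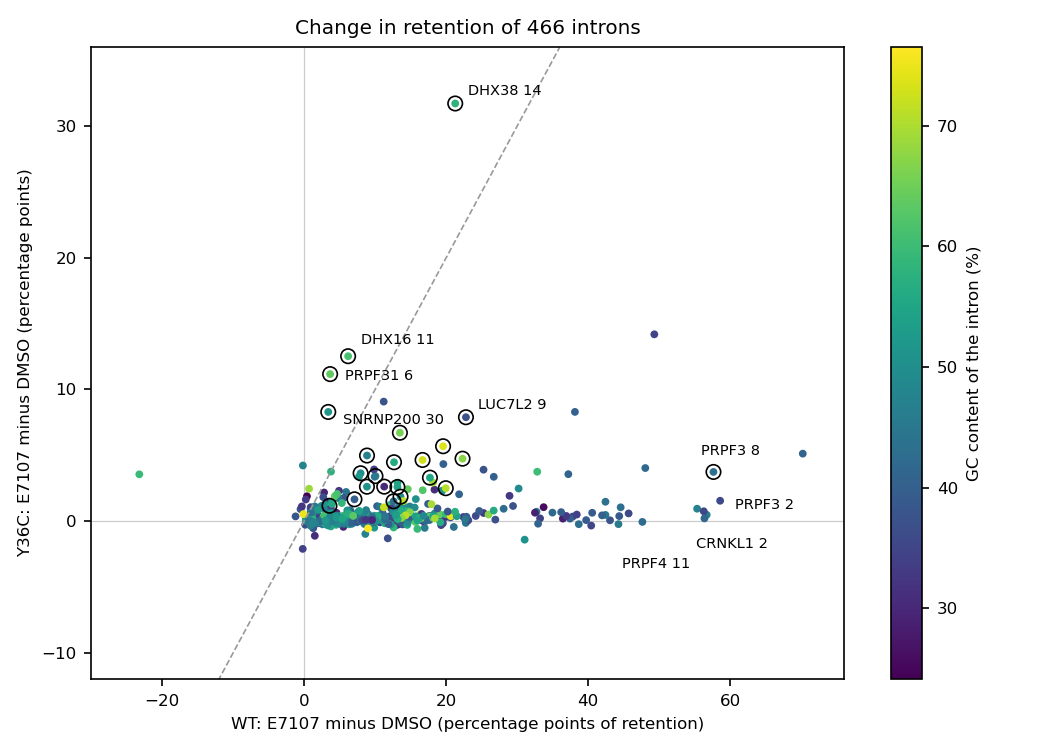
Change in retention of the 466 measured introns on E7107, in percentage points, in WT (horizontal) and Y36C cells (vertical), coloured by GC content. Circles mark the 23 introns called higher at both boundaries in Y36C and the dashed line equal change; 4 circled introns lie above it, in DHX38, DHX16, PRPF31 and SNRNP200.

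Without drug, the highest retention in WT DMSO was in the LSM7 intron above, then in an intron of SNRPC outside the canonical transcript (chr6:34740785-34741222, plus strand, 22.6% ± 8.73), DHX38 intron 14, and introns outside the canonical transcripts of LUC7L3 (chr17:48826706-48827861, plus strand, 13.7% ± 5.1) and SNRPD2 (chr19:46191825-46192490, minus strand, 13.5% ± 5.05). With E7107 these reached 33.8% ± 6.18, 63% ± 4.28 and 44.6% ± 2.78 in WT and 31.9% ± 7.66, 26.1% ± 6.63 and 6.36% ± 5.26 in Y36C for SNRPC, LUC7L3 and SNRPD2.

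The 23 introns called in Y36C had a median GC content of 53.0% and a median length of 354 bases, and the other 443 had 45.1% and 799 bases. Among 43 member introns with 60% GC or more the median change was 14.6 points in WT and 0.518 in Y36C, and among 137 with GC under 40% it was 9.57 and 0.193. Over all measured introns these medians were 6.24 and 2.06 at high GC and 5.56 and 0.205 at low GC. Spearman's rho between GC content and the Y36C change was 0.126 over the 466 member introns and 0.278 over all 73204. Introns of a gene share transcripts, so these are descriptions only.

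Among measured member introns, those with the 5′ splice site of U12-type introns, which the minor spliceosome removes, were both in CRNKL1. Their first 20 bases are shown with the searched bases TATCCTT at positions 2 to 8 in capitals, which 259 of all 73204 measured introns had.
CRNKL1 intron 5, chr20:20028389-20028408, minus strand: aTATCCTTtggacgagatct
CRNKL1 intron 12, chr20:20018973-20018992, minus strand: gTATCCTTgctttgtagatg

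CRNKL1 intron 5 went from 1.28–4.95% (median 3.46%) to 20.4–35.1% (median 28.6%) in WT and was at 0–7.52% (median 2.92%) and 3.78–13.6% (median 6.11%) in Y36C. CRNKL1 intron 12 went from 0–1.33% (median 1.12%) to 18.5–23.5% (median 21.2%) in WT and was at 0–0.658% (median 0.284%) and 0.704–1.18% (median 1.11%) in Y36C. Both rose at both boundaries in WT and responded less in Y36C. The interaction at the 3′ boundary of intron 5 was lost with an offset of 0.1 points (limma, adjusted p = 0.306) and with no filter on PSI (0.0509). In Y36C intron 5 did not pass. CRNKL1 intron 12 did not meet the PSI filter there and did not pass without it (limma, adjusted p = 0.142 at the 5′ and 0.598 at the 3′ boundary). These levels lay within the range of all CRNKL1 introns, 6.95% to 56.5% in WT E7107. Over all 259 such introns the median change was 5.29 points in WT and 2.32 in Y36C.

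Exon skipping took another course. Of 1167 member rows for junctions across an annotated exon, 268 could be tested in WT, of which 96 rose and 74 fell, against 17.4% and 26.4% in all genes. In Y36C 80 of 252 rose and 19 fell, against 24.4% and 8.31%. By the interaction 85 of 305 were larger and 72 smaller in Y36C, against 31.1% and 12.3%. Of the 80 that rose in Y36C, 41 also had a positive interaction, a count for which no share over all genes was taken. Here too a row had to be above 0 in all 6 samples of a group to enter, and a junction can count at both of its ends. With no filter on PSI, 109 of 1095 rows rose and 71 fell in WT. In Y36C 73 of 1103 rose and 16 fell without it. The unfiltered interaction was positive for 85 and negative for 84 of 1090. For these unfiltered counts no share over all genes was taken. The exon passed over may belong to any transcript, so canonical junctions enter too, such as that of PRPF3 below. Retention lowers the share of such junctions, so not every fall or interaction counted here is a change in skipping.

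**Figure D4:**
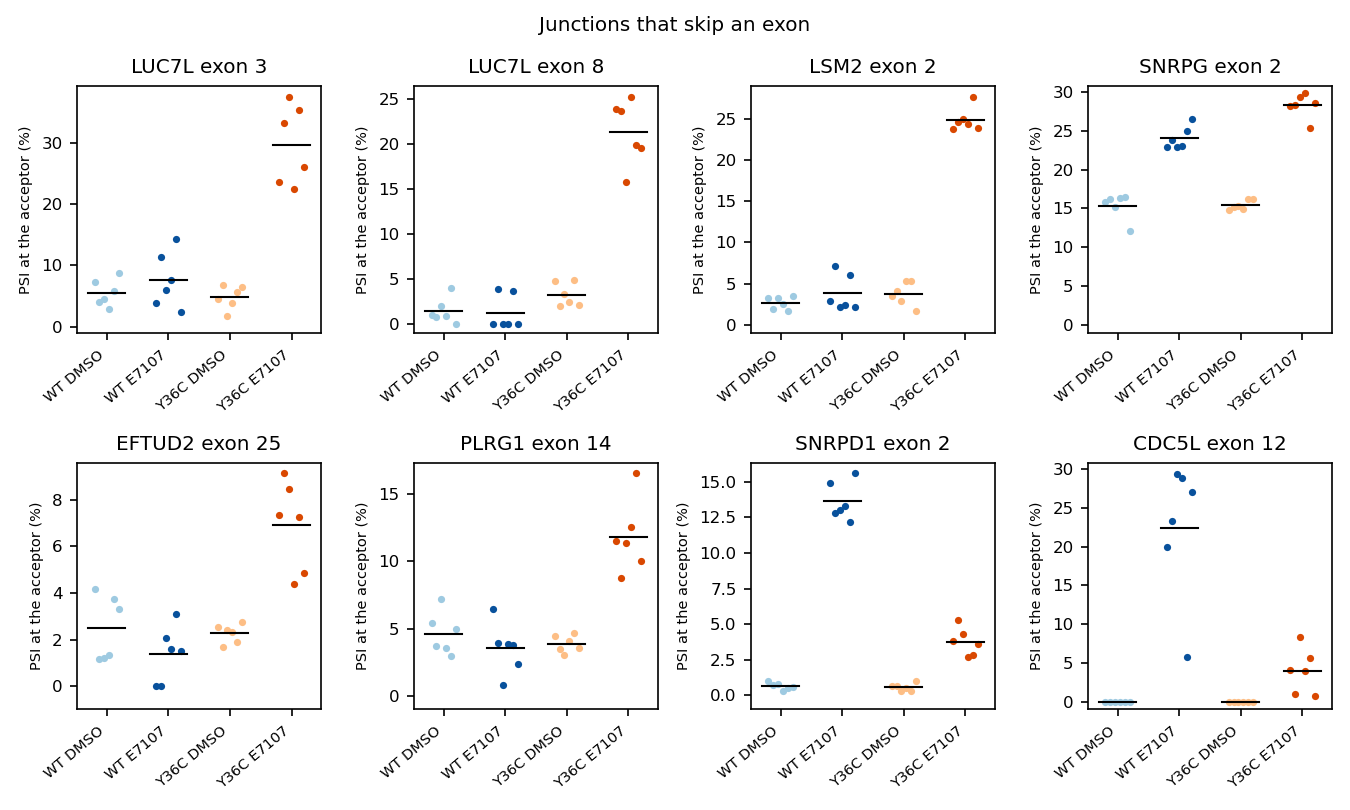
PSI at the acceptor, in percent, of 8 junctions that skip an exon, in the 6 samples of each group (points) with the mean (line); each panel has its own scale. LUC7L, LSM2, EFTUD2 and PLRG1 are highest in Y36C E7107, SNRPG is high with E7107 in both genotypes, and SNRPD1 and CDC5L are highest in WT E7107.

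The largest rise in Y36C was in LUC7L, a LUC7-like protein of U1 snRNP. Skipping of its exon 3 (99 bases) was at 2.94–8.74% (median 5.18%) in WT DMSO and at 2.44–14.3% (median 6.79%) in WT E7107, which overlapped. In Y36C it was at 1.71–6.78% (median 5.07%) and 22.5–37.5% (median 29.7%), the latter above every other sample. The log odds rose in Y36C (2.00, SE 0.20, adjusted p = 4.8e-05), did not pass in WT (0.21, SE 0.28, adjusted p = 0.55), and differed between them by limma's interaction (1.79, SE 0.35, adjusted p = 0.00017). Skipping of LUC7L exon 8 (30 bases) went from 2.03–4.92% (median 2.87%) to 15.7–25.2% (median 21.7%) in Y36C, against 0–3.97% (median 0.917%) and 0–3.9% (median 0%) in WT. The boundary at the same acceptor was at 15.7% in WT E7107 and 7.18% in Y36C E7107.

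LSM2, of the ring on U6 RNA, skipped exon 2 (68 bases) at 1.62–5.34% (median 3.83%) in Y36C DMSO and 23.8–27.7% (median 24.5%) in Y36C E7107. The WT samples, at 1.7–3.45% (median 2.85%) and 2.1–7.14% (median 2.68%), overlapped, and the interaction was 1.76, SE 0.26, adjusted p = 4.6e-06. SNRPG, an Sm protein, skipped exon 2, of 23 bases, already without drug. Its values went from 12.2–16.5% (median 16%) to 22.9–26.5% (median 23.4%) in WT and from 14.8–16.2% (median 15.3%) to 25.4–29.9% (median 28.5%) in Y36C. Both rises passed, and the interaction did not (0.20, SE 0.10, adjusted p = 0.11). It did pass, as a larger response in Y36C, with PSI in percent (limma, adjusted p = 0.00388) and with an offset of 5 points (0.0282). The 23-base and 30-base exons are shown with 20 flanking intron bases and the exon in capitals.
SNRPG exon 2, chr2:70516462-70516524, minus strand: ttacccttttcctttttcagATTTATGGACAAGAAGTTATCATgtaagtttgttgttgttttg
LUC7L exon 8, chr16:240520-240589, minus strand: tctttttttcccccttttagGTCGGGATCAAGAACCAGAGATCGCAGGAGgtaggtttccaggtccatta

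Smaller rises with a larger response in Y36C were those of PLRG1 exon 14 (3.89% ± 0.626 to 11.8% ± 2.69), EFTUD2 exon 25 (2.28% ± 0.399 to 6.92% ± 1.91), EFTUD2 exons 11 and 12 together (0.237% ± 0.426 to 3.92% ± 1.68) and SNRNP70 exon 2 (1.41% ± 0.234 to 5.72% ± 0.83). A canonical junction of PRPF3 passes over an exon of another transcript (chr1:150300926-150305154, plus strand). At its acceptor it rose in Y36C from 84.7% ± 3.11 to 91.6% ± 3.26. It fell there in WT from 85% ± 4.63 to 45.1% ± 5.07, where the boundary took 42.7%. At its donor it fell in WT from 89.9% ± 2.54 to 52.6% ± 7.3. The Y36C change at the donor, from 94.8% ± 2.63 to 95.8% ± 2.97, did not pass (limma, adjusted p = 0.57). A LUC7L3 junction of another transcript (chr17:48814841-48817666, plus strand) rose at its donor from 61.7% ± 11.8 to 85% ± 7.45 in Y36C. It fell there from 58.4% ± 10.6 to 14.6% ± 6.15 in WT, where the boundary went from 15.85% to 85%. At its acceptor it rose in both genotypes, from 3.11% ± 0.616 to 5.64% ± 2.23 in WT and from 3.52% ± 0.826 to 6.13% ± 1.58 in Y36C. The interaction at the acceptor did not pass (limma, adjusted p = 0.98).

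The largest skipping events in WT were others. Skipping of CDC5L exon 12 (81 bases) was listed at 0 in the DMSO samples of both genotypes. It was at 5.71–29.4% (median 25.2%) in WT E7107 and at 0.735–8.33% (median 3.98%) in Y36C E7107, while the boundary at its acceptor was at 34.6% and 0.732%. SNRPD1, an Sm protein with retention of only 4.01% ± 0.0581 in WT E7107, skipped exon 2 (77 bases). Skipping went from 0.309–0.972% (median 0.649%) to 12.2–15.6% (median 13.2%) in WT and from 0.294–0.99% (median 0.565%) to 2.7–5.28% (median 3.7%) in Y36C, less than in WT (interaction -1.19, SE 0.15, adjusted p = 5.8e-07). LUC7L3 exon 2, DHX8 exon 16 and PRPF4 exon 5 were skipped at 9.95% ± 5.46, 6.79% ± 2.49 and 8.94% ± 3.92 in WT E7107.

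Without drug few differences between the genotypes were called. Mean retention differed in 0 of 45 genes (limma, 0 higher and 7 lower in Y36C at an unadjusted p under 0.05), against 0.292% higher and 0.242% lower among all genes. Of 204 exon-skipping rows tested 0 differed (limma, 16 higher and 4 lower at an unadjusted p under 0.05), against 0.233% and 0.157%. Of 456 boundaries tested 1 was higher and 1 lower in Y36C, against 0.204% and 0.165%. They lay in SNRNP70 and DHX38, named here after their values were seen.

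In SNRNP70 a donor was joined to acceptors 27 bases apart, and the AG of each is in capitals in the stretch that spans both.
SNRNP70 acceptors, chr19:49611022-49611088, plus strand: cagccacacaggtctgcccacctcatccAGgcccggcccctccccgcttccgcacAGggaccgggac

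The share of the upstream acceptor at the donor was 71.2–74.7% (median 73.2%) in WT DMSO and 79.7–82.5% (median 80.4%) in Y36C DMSO, without overlap (0.43, SE 0.05, adjusted p = 0.0068). That of the downstream acceptor was 24.2–27.5% (median 26%) and 16.6–19.2% (median 18.7%) (-0.44, SE 0.05, adjusted p = 0.0039). The SNRNP70 boundary that differed lies at the downstream acceptor, where reads of the longer exon also run through, so it is no measure of retention. With E7107 the upstream share fell to 61.7% ± 1.78 in WT (limma, adjusted p = 4.4e-05) and was 81.3% ± 1.12 in Y36C, where the change did not pass (limma, adjusted p = 0.74). The downstream share was 26% ± 1.18 in WT DMSO and 23.5% ± 0.781 in WT E7107, a change that did not pass (limma, adjusted p = 0.11). Each is a share of all paths at the donor, retention among them. Whether use shifted between the acceptors in WT was not tested. With the replicate block the SNRNP70 differences without drug did not pass (limma, adjusted p = 0.136 for the upstream and 0.138 for the downstream acceptor's share at the donor, and 0.153 for the boundary).

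In DHX38 the 3′ boundary of intron 22 was at 4.59–8.57% (median 5.31%) in WT DMSO and 1.4–3.27% (median 2.19%) in Y36C DMSO, without overlap (-0.78, SE 0.13, adjusted p = 0.049). The DHX38 call was lost with PSI in percent (limma, adjusted p = 0.0799), with an offset of 0.1 points (0.0712), with no filter (0.124) and with the replicate block (0.3). With E7107 the share of this boundary rose to 25% ± 8.88 in WT and 6.38% ± 2.88 in Y36C.

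Alternative junctions of the U1 and Sm genes also moved with E7107. In SNRPB, use of a junction outside the canonical transcript (chr20:2442440-2443281, minus strand) fell at its acceptor from 30.7% ± 1.39 to 25.6% ± 0.674 in WT and from 27.3% ± 1.35 to 22.1% ± 0.912 in Y36C, and the interaction did not pass (limma, adjusted p = 0.87). In LUC7L a junction outside the canonical transcript (chr16:239339-239929, minus strand) fell at its donor from 68% ± 6.51 to 19.1% ± 10.3 in WT and from 70.9% ± 7.6 to 56.6% ± 5.4 in Y36C. In SNRNP70 such a junction (chr19:49604729-49605370, plus strand) fell at its acceptor from 81.2% ± 7.6 to 27.6% ± 6.64 in WT and was at 81.2% ± 5.17 and 73.9% ± 7.17 in Y36C. A LUC7L3 junction (chr17:48828003-48828107, plus strand) moved in opposite directions, from 14.9% ± 2.75 to 25.8% ± 4.26 in WT and from 9.45% ± 0.961 to 3.87% ± 0.835 in Y36C, each passing the test.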

How the data were processed

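RNA-seq was analysed from 24 samples of HCT116 cells. The authors aligned reads to hg19 with STAR (version not given in the sources used here) and deposited PSI as percent values for each junction and boundary. Rows of the mitochondrial genome or without strand (6433) were left out, and a site at which all values were 0 was taken as missing. Of 658288 junctions 97.2% had GT and AG ends on GRCh37. Introns and genes came from GENCODE 44 lifted to GRCh37, and sequences from GRCh37, of which 1 is not reported here. Junctions are printed from the first to the last intron base.

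Changes were tested with limma 3.58.1 (R 4.3.3) on natural-log odds of PSI after adding 1 percentage point to either part. Scale and offset were those of an earlier analysis of these data that had compared settings with the study's own lists, so they are not independent of it. Rows were fitted together where every sample had reads at the site and some group had PSI above 0 throughout its 6 samples. Mean retention was fitted over 9932 genes. Benjamini-Hochberg adjustment ran over each fit, with a threshold of 0.05. Groups were compared in pairs on their own samples and the interaction on all 24. Scripts were tested on simulated data. Alternatives were other scales, offsets, filters, intron sets, a minimum change and a replicate block.

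Named with ranges were the genes with the largest and smallest WT change in each role, and the introns and skipped exons with the largest changes past the threshold or the highest level without drug. The other genes are given by their means, and a few alternative junctions were picked from a longer list after their values were seen. The members and lists were chosen with earlier results of these data known. Genes that overlap on the same strand share reads (FMC1 with LUC7L2, PCSK6 with SNRPA1, and readthrough or small RNA genes with others such as SNRPB and SNRPD3), so their values are uncertain.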

Additional observations from a re-analysis of the deposited data

Results flagged for a closer look

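In 22 of 248 groups of 6 samples (8.87%) 1 sample stood far from the other 5, where chance gives about 1 in 20 separate groups. These groups are not separate, since a gene's mean holds its introns and the single SNRPD2 intron enters both ways. The distance to the nearest sample was then above Dixon's critical value as a share of the range of the group. In Y36C DMSO the highest sample stood apart in mean retention of SNRPD2 (13.5%), SNRPF (0.655%) and PRPF3 (2.24%). In WT DMSO the highest sample stood apart in mean retention of LSM5 (2.68%), DHX15 (0.373%) and DHX16 (1.59%). In WT E7107 the highest sample stood apart in mean retention of SNRPA (6.64%). In WT DMSO the lowest sample stood apart in mean retention of SNRNP70 (1.69%), CRNKL1 (0.444%) and SLU7 (0.445%). In WT E7107 the lowest sample stood apart in mean retention of SART1 (14.4%), PRPF19 (2.61%) and DHX15 (8.49%). In Y36C E7107 the highest sample stood apart in mean retention of DHX16 (2.17%). For single introns, the highest Y36C DMSO sample stood apart in the PRPF3 intron outside the canonical transcript (10.4%), DHX16 intron 11 (6.52%), the SNRPD2 intron outside the canonical transcript (13.5%) and CRNKL1 intron 2 (0.781%). For single introns, the highest WT DMSO sample stood apart in DHX16 intron 11 (6.12%), PRPF31 intron 6 (2.73%) and CRNKL1 intron 2 (1.02%). For single introns, the highest Y36C E7107 sample stood apart in CRNKL1 intron 2 (2%).

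The effect of E7107 differed between the genotypes by limma's interaction (adjusted p of 0.05 or less over all features). Mean retention responded less in Y36C in 39 genes and more in 3. Among rows that met the PSI filter, boundaries responded less in 790 and more in 23, and exon skipping less in 72 and more in 85. With no filter, exon skipping responded less in 84 rows and more in 85. Among the genes given with all ranges, for those that passed, the difference of the changes in log odds (Y36C change minus WT change) was -2.04 in SNRPD2, -0.30 in SNRPF, -0.86 in LSM3, 1.06 in LSM7, -2.32 in LUC7L3, -1.83 in SNRPB2, -0.50 in SNRPA1, -1.49 in SNRNP200, -0.59 in EFTUD2, -3.05 in PRPF3, -0.30 in PRPF31, -2.83 in CRNKL1, -1.06 in PRPF19, -2.38 in CDC40 and -0.72 in DHX16. For introns called at both boundaries, the Y36C change minus the WT change, in percentage points, was -57 in PRPF3 intron 2, -65.1 in the PRPF3 intron outside the canonical transcript, -56.2 in PRPF3 intron 7, -53.9 in PRPF3 intron 8, -14.9 in LUC7L2 intron 9, -55.5 in PRPF4 intron 8, -35.1 in the LUC7L3 intron outside the canonical transcript, 26.8 in the LSM7 intron outside the canonical transcript, -32.5 in the SNRPD2 intron outside the canonical transcript, -19.5 in CRNKL1 intron 12, -21.4 in CRNKL1 intron 5 and -56.2 in CRNKL1 intron 2. For skipping at the acceptor the same difference was -9.8 for SNRPD1 exon 2, 20 for LSM2 exon 2, 3.69 for SNRNP70 exon 2, 18.2 for LUC7L exon 8, 22.9 for LUC7L exon 3, -9.62 for LUC7L3 exon 2, 5.76 for EFTUD2 exon 25, 3.17 for EFTUD2 exons 11 and 12, 46.7 for the canonical PRPF3 junction, -8.94 for PRPF4 exon 5, -18.5 for CDC5L exon 12, 8.99 for PLRG1 exon 14 and -5.23 for DHX8 exon 16.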

How the results depend on the processing

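With a minimum change of 10 percentage points the calls fell in number, by the construction of that setting. In WT 442 boundaries and 37 exon-skipping rows (7 higher, 30 lower) were left, in Y36C 16 boundaries and 15 skipping rows, by the interaction 405 boundaries and 39 skipping rows, and between the genotypes under DMSO 0 boundaries. The 2 boundaries that differed under DMSO became 1 with PSI in percent as the response, 1 with no filter on PSI and 0 with the replicate number as a block. Directions turned for LSM4 over all annotated introns, where the WT change in log odds was -0.089 (limma, adjusted p = 0.15) and the interaction 0.26 (limma, adjusted p = 0.0012). They also turned for LSM7 over the canonical transcript, at 0.18 (limma, adjusted p = 0.062) and -0.12 (limma, adjusted p = 0.33). The cause was not tested, beyond the other introns that enter.

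Counts of genes kept within 1.5 times under each setting tried (offset, scale, median over introns, 1 boundary at a time, other intron sets, replicate block). In Y36C they ranged from 18 genes with either boundary alone to 27 with all annotated introns. In WT the limma calls of LSM4 (PSI in percent, adjusted p = 0.0779) and SNRPG (5′ boundaries alone, adjusted p = 0.063) were lost, and LSM6 (offset of 0.1 points, adjusted p = 0.0436) and LSM8 (3′ boundaries alone, adjusted p = 0.0219) were called lower. The Y36C calls of AQR, CRNKL1, DHX15, DHX8, LSM8, LUC7L, LUC7L2, LUC7L3, PRPF3, SNRNP40, SNRNP70 and USP39 were each lost in at least 1 setting. Calls were gained in Y36C in at least 1 setting by LSM4, LSM6, LSM7, SLU7, SNRPA1, SNRPC and, as a fall, SNRPD3. The interactions of LSM2, LSM4, LSM6, LSM8, PRPF31 and SNRPE were also lost in at least 1. Those of SNRPC and SNRPG, not called in the main fit, were gained in at least 1. Samples with the same replicate number did not deviate together (correlations from -0.033 to 0.048 over 9932 genes), so no pairing by number was seen. Noise in the PSI of single genes can hide a shared deviation, so pairing is not excluded. With the replicate block, retention was called in 42 genes in WT and 23 in Y36C, and the interaction in 41. Among boundaries 892 were called in WT and 93 in Y36C, and 806 by the interaction. The depth behind each PSI is unknown, so a site listed at 0 may have been read few times.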
